A study of Mus musculus with 12 samples.

Results

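The comparison described here is between livers of mice that lacked the gene Sting1 and livers of wild-type (WT) mice, in which hepatocytes kept the anti-apoptotic gene Mcl1, so that the effect of Sting1 loss was read in the absence of the injury that Mcl1 deletion causes. It used 6 of the 12 bulk RNA sequencing libraries of the study: 3 labelled Sting1 KO (a constitutive knockout, absent from every cell of the animal) and 3 labelled WT. The other 6 libraries came from livers labelled Mcl1 KO, in which an albumin-promoter Cre deletes Mcl1 in hepatocytes, and Mcl1 Sting1 DKO, which carry both deletions. They entered the same model so that the spread between animals was estimated over all 12, and they were the second background in which Sting1 loss could be compared. No agent was given to the Sting1 KO or WT mice. Their age and sex are not given in the labels, and mice of both sexes were used in the study. Of 40551 genes in the files, 15070 had enough reads to be tested, and all of these form the comparison. RNA came from whole liver, so fewer cells of a type and less RNA per cell cannot be told apart. Nothing in the labels says more of how the replicates were housed or bred, and the p-values measure the spread between these livers.

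STING, the protein that Sting1 encodes, sits in the endoplasmic reticulum and is switched on by cGAMP, the cyclic dinucleotide that cGAS makes when it meets double-stranded DNA in the cytosol. It recruits the kinase TBK1, which activates the transcription factor IRF3 and with it type I interferon and the interferon-stimulated genes; it also feeds NF-kB and autophagy. In liver it is known mainly from Kupffer cells (the resident macrophages), other myeloid cells and endothelium, and hepatocytes are known to hold little of it.

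The libraries held between 32210041 and 42121919 counted reads each. Sting1 itself was read at a low level and did not separate the groups. Its level was 2.53, 2.43 and 2.11 CPM (counts scaled to library size, here by the trimmed mean of M values, TMM) in WT replicates 1, 2 and 3, and 1.16, 1.72 and 2.70 CPM in Sting1 KO replicates 1, 2 and 3. The ranges overlapped, since Sting1 KO replicate 3 lay above every WT library. The log2 fold change (Sting1 KO minus WT) was -0.33 (SE 0.30, adjusted p = 0.998), and an exact two-sided permutation test of the 3 against 3 libraries gave p = 0.4, where 0.1 is the smallest p this design allows. The log2 fold change was -0.69 without Sting1 KO replicate 3 and -0.09 without Sting1 KO replicate 1, and it was called in neither case. Counts over the whole gene cannot tell a transcript that lacks an exon or a reading frame from an intact one, so they do not check the genotype, and Sting1 KO here means the libraries so labelled. The paper reports that Western blotting showed the knockout in its Sting1-null mice. It also reports that their splenocytes did not phosphorylate IRF3 after a STING agonist. It does not tie these checks to the livers sequenced here. Side by side, the Sting1 level was 4.59, 5.997 and 3.67 CPM in Mcl1 KO and 1.90, 2.53 and 2.33 CPM in Mcl1 Sting1 DKO libraries (log2 fold change -1.05, SE 0.29, adjusted p = 0.134). Cgas, the DNA sensor, stayed under 1 CPM in all 6 libraries. Mcl1 was read at 90.2, 102 and 104 CPM in WT and at 78.3, 90.1 and 77.0 CPM in Sting1 KO livers (log2 fold change -0.27, SE 0.16, adjusted p = 0.998).

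The WT group was not uniform in sex-linked transcripts, and this touches most of what follows. WT replicates 2 and 3 had summed Y-linked levels of 147 and 142 CPM with Xist (the RNA that silences an X chromosome) at 0.0278 and 0.0310 CPM, whereas WT replicate 1 had no Y-linked read and Xist at 71.9 CPM. These and the summed levels of gene lists are CPM of all counted reads, without TMM scaling. The Sting1 KO libraries all resembled WT replicate 1, with Y-linked levels of 0 to 0.0497 CPM and Xist from 38.6 to 62.0 CPM. Genotype and Y-linked expression were therefore tied together in the 6 libraries, with WT replicate 1 as the only WT library to match the Sting1 KO group. For this reason many of the results below are set beside 1 or both of 2 further values: the log2 fold change with Y-linked expression as a covariate over all 12 libraries (in which 1 Mcl1 Sting1 DKO library was also Y-positive), and the log2 fold change over the 9 Y-negative libraries only, where WT is a single library that is assumed to vary like the others. Spearman correlations of expression across genes (which are not independent replicates) were 0.986 to 0.987 between WT replicate 1 and the Sting1 KO libraries, and 0.971 to 0.972 between it and the other WT libraries.

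**Figure D1:**
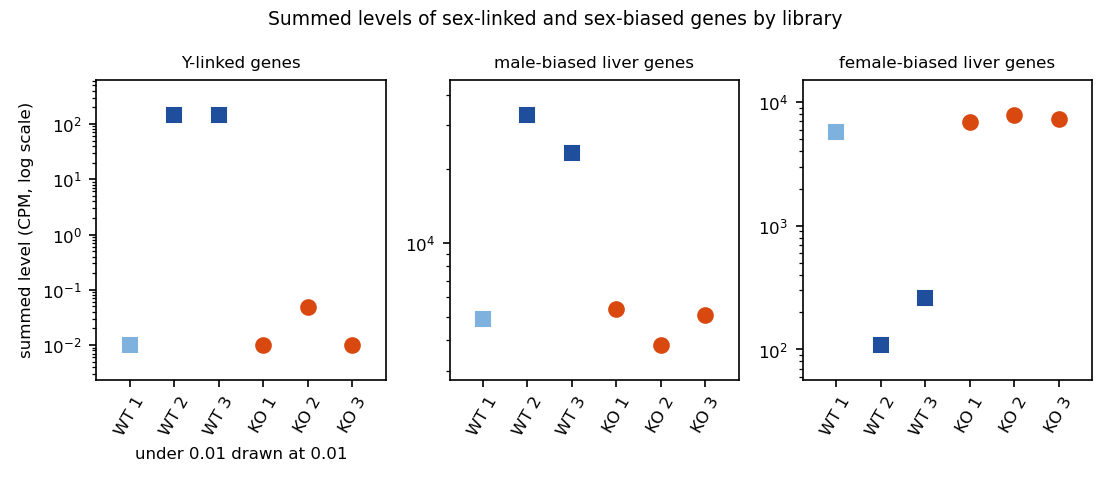
Summed level in CPM (log axis) of Y-linked genes, male-biased liver genes and female-biased liver genes in each WT (squares) and Sting1 KO (circles) library. WT replicate 1 (light square) sits with the 3 Sting1 KO libraries in all panels, away from WT replicates 2 and 3.

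Across the transcriptome, no gene passed an adjusted p of 0.05 in edgeR's quasi-likelihood test: 0 of 15070 genes (0% called), with a lowest adjusted p of 0.45. At an unadjusted p under 0.05 there were 821 genes (5.45%): 387 on the higher side (2.57%) and 434 on the lower side (2.88%). With the Y-linked covariate there were 525 (3.48%). The 2 groups of 3 libraries did not overlap for 1887 genes (12.5%), 1064 higher (7.06%) and 823 lower (5.46%). Log2 fold changes centred on 0.00, with 7613 genes above and 7456 below 0, and their median SE was 0.23. Simulated libraries of this comparison had 198 of 14902 genes changed by 2 on the log2 scale, with no Y-linked difference within WT. In them edgeR gave 167 correct and 10 false calls, and DESeq2 gave 176 correct and 36 false calls. A zero count here therefore does not mean that no test at this size could call a gene. In the real libraries DESeq2 called 49 of 15023 genes (0.326%), 15 higher and 34 lower. In 24 of these 49 genes WT replicate 1 lay nearer to the Sting1 KO mean than to the other WT libraries. Among the 24 were 8 major urinary protein (Mup) genes and the Y-linked gene Uty. WT replicate 1 lay so in 59.1% of all tested genes and in 40.9% of those with an unadjusted edgeR p under 0.05. Picking genes for a difference between the groups itself lowers this share, so no conclusion is drawn from it. With the Y-linked covariate DESeq2 called 2 genes, Cib3 and Hao2.

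**Figure D2:**
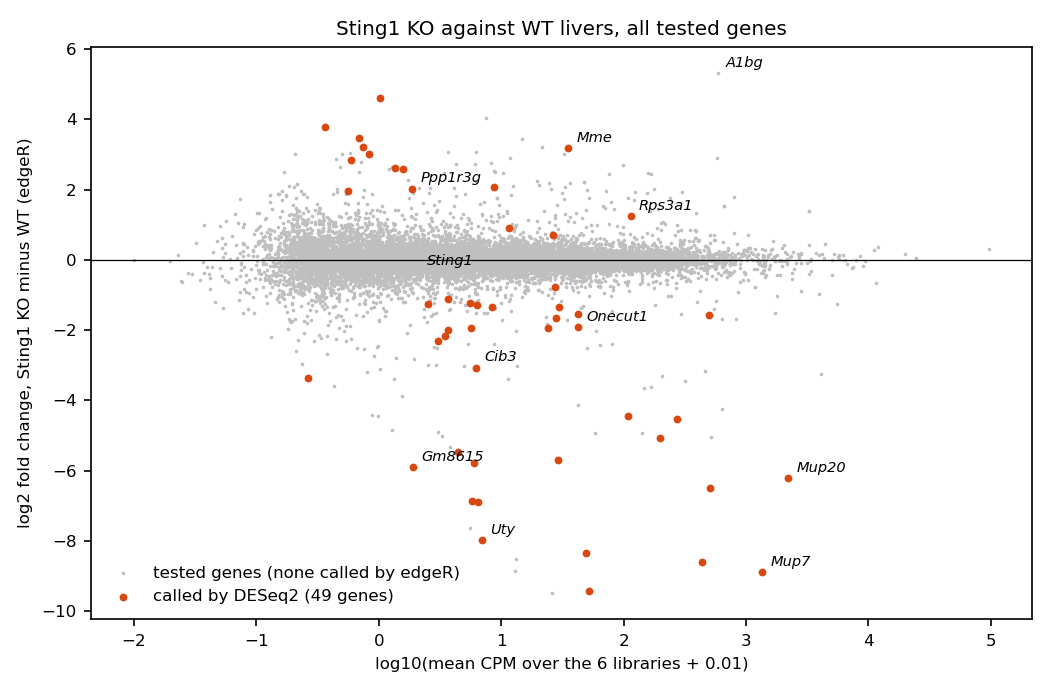
Log2 fold change (Sting1 KO minus WT, edgeR) against log10 of the mean CPM over the 6 libraries plus 0.01, for the 15070 tested genes. None is called by edgeR, and the 49 genes that DESeq2 called are drawn in orange, with the Mup genes at the lower right.

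The genes with the lowest p among those that were lower in Sting1 KO livers are given first, as a description, since none was called by edgeR. Only genes whose groups did not overlap were taken, here and on the higher side, so that separation was required and is not a result. Cib3, which encodes a calcium- and integrin-binding protein (chromosome 8, 72958179 to 72966840, minus strand, GRCm39), had the lowest p of all genes. It was read at 17.4, 8.48 and 7.397 CPM in WT and at 1.37, 0.98 and 1.47 CPM in Sting1 KO livers. Every Sting1 KO library lay far below every WT library, with the Y-negative WT library highest. The log2 fold change was -3.07 (SE 0.46, adjusted p = 0.45), -3.15 with the Y-linked covariate and -3.71 over the Y-negative libraries, and DESeq2's adjusted p was 5.69e-09. In Mcl1-deficient livers it also lay lower without Sting1, with a mean of 12.7 CPM against 27.4 CPM (log2 fold change -1.10, SE 0.42, adjusted p = 0.183).

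Onecut1 encodes the homeodomain factor HNF6, which is active in hepatocytes and bile duct cells (chromosome 9, 74769118 to 74800594, plus strand). Its level was 65.6, 75.4 and 59.2 CPM in WT and 19.8, 13.7 and 19.7 CPM in Sting1 KO livers. The groups were well apart and tight within themselves. The log2 fold change was -1.91 (SE 0.40, adjusted p = 0.575), -1.58 with the Y-linked covariate and -1.88 over the Y-negative libraries. The lncRNA Gm20649 overlaps Onecut1 over 29641 bases on the same strand, so reads may be shared between them. It showed the same order, with 41.9, 49.1 and 37.3 CPM in WT and 16.2, 9.92 and 14.2 CPM in Sting1 KO livers. In Mcl1-deficient livers the Sting1 contrast of Onecut1 was 0.33 on the log2 scale, and the difference between the backgrounds had an adjusted p of 0.252.

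Serpine2, a secreted inhibitor of serine proteases, was read at 3.51, 9.88 and 4.42 CPM in WT and at 1.13, 1.67 and 1.57 CPM in Sting1 KO livers (log2 fold change -1.98, SE 0.38). Smpd3, a neutral sphingomyelinase, was read at 3.61, 6.38 and 6.93 CPM and at 1.02, 1.57 and 1.09 CPM (-2.15, SE 0.45). Bhlhe41, a repressor in the circadian clock, was read at 2.82, 6.76 and 5.78 CPM and at 1.13, 1.19 and 0.63 CPM (-2.32, SE 0.50). In these genes the lowest WT library was WT replicate 1, and the log2 fold change over the Y-negative libraries was smaller, at -1.23, -1.52 and -1.47. The same held more strongly for F2r, the thrombin receptor PAR1, at 28.8, 90.2 and 69.8 CPM in WT and 20.9 to 21.9 CPM in Sting1 KO livers (-1.54, and -0.41 over the Y-negative libraries). The growth factor receptor gene Fgfr1 moved from -1.23 to -0.61 in the same way. Podn, a small leucine-rich proteoglycan of the matrix, and Zc2hc1c did not depend on the Y-positive libraries, with log2 fold changes of -1.26 and -1.11 over all libraries and -1.33 and -1.11 over the Y-negative ones.

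2 other low-p genes need their neighbours or copies beside them. Gm8615 is a processed pseudogene on chromosome 5 with 196, 80 and 116 reads in WT livers and 1, 0 and 0 reads in Sting1 KO livers. The ratio of the summed reads, scaled for depth, was 0.00229 (exact 95% interval 5.79e-05 to 0.0129, counting error only). In the other libraries it was also present or absent as a whole, with 249, 1 and 72 reads in Mcl1 KO and 1, 0 and 0 reads in Mcl1 Sting1 DKO livers. Its transcript matched Gnpda1, the glucosamine-6-phosphate deaminase gene that lies 2.59 Mb from Sting1, at 746 of 753 aligned bases (99.1%), so reads may be split between them. Gnpda1 (chosen here after its values were seen) was read at 6.07, 7.09 and 5.02 CPM in WT and at 12.8, 22.7 and 12.9 CPM in Sting1 KO livers (log2 fold change 1.40, SE 0.41, adjusted p = 0.676). Maskbp3, at 38.2, 35.2 and 54.4 CPM in WT and 22.8, 15.6 and 11.8 CPM in Sting1 KO livers (-1.35, SE 0.27), overlaps Eif4ebp3 over 1858 bases and lies 0.91 Mb from Sting1. Within 5 Mb of Sting1, 14 of 128 tested genes (10.9%) had an unadjusted p under 0.05, 7 in each direction, beside 7.14% on the rest of that chromosome and 5.45% of all genes. By overlap there was no such excess: the groups did not overlap for 16 of the 128 (12.5%), beside 10.9% on the rest and 12.5% of all genes.

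Among the genes that were higher in Sting1 KO livers, Ppp1r3g, which targets protein phosphatase 1 to glycogen, had the lowest p. It was read at a low level, 0.61, 0.56 and 0.92 CPM in WT and 3.32, 2.39 and 3.31 CPM in Sting1 KO livers. The log2 fold change was 2.03 (SE 0.37, adjusted p = 0.461), 1.69 with the Y-linked covariate and 2.22 over the Y-negative libraries. Mme encodes neprilysin, a membrane peptidase. It was read at 6.07, 1.36 and 13.4 CPM in WT and at 46.9, 80.2 and 64.0 CPM in Sting1 KO livers, a log2 fold change of 3.19 (SE 0.66, adjusted p = 0.578), 3.27 with the covariate and 3.38 over the Y-negative libraries. Slc17a1, an organic anion and phosphate transporter, was read at 8.81, 7.98 and 7.46 CPM and at 12.5, 15.1 and 18.2 CPM (0.91, SE 0.19). Soat2, which esterifies cholesterol, was read at 36.0, 26.4 and 34.0 CPM and at 50.5, 41.7 and 56.7 CPM (0.63, SE 0.16). For these genes the Y-negative WT library lay with the other WT libraries.

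The others of this set were smaller, lower or uneven. Capn10, a calpain protease, Igsf8, an immunoglobulin superfamily protein, and the adaptor gene Shf differed by 0.70, 0.53 and 0.66 on the log2 scale with SEs of 0.12 to 0.17. Tcf7, the T cell factor of the Wnt pathway, differed by 0.93 (SE 0.24). Rps3a1, a ribosomal protein gene of a kind with many processed copies, was read at 44.9, 49.0 and 109 CPM in WT and at 191, 165 and 126 CPM in Sting1 KO livers, and its value is uncertain for that reason. Trpm6, a magnesium channel, was under 1 CPM in WT and at 1.16, 3.37 and 2.56 CPM in Sting1 KO livers. Snora23 and Nr4a1 were high in only part of the Sting1 KO group: Snora23 at 3.72, 2.15 and 0.17 CPM and Nr4a1 at 4.02, 3.50 and 0.68 CPM. Of these 24 low-p genes, DESeq2 called 20. Its adjusted p for Igsf8, Soat2, Shf and Tcf7 was 0.0673, 0.0683, 0.109 and 0.0683. The 24 were picked for a low edgeR p in the same counts, so these calls are not separate support. With the Y-linked covariate DESeq2 called Cib3 and no other of them.

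**Figure D3:**
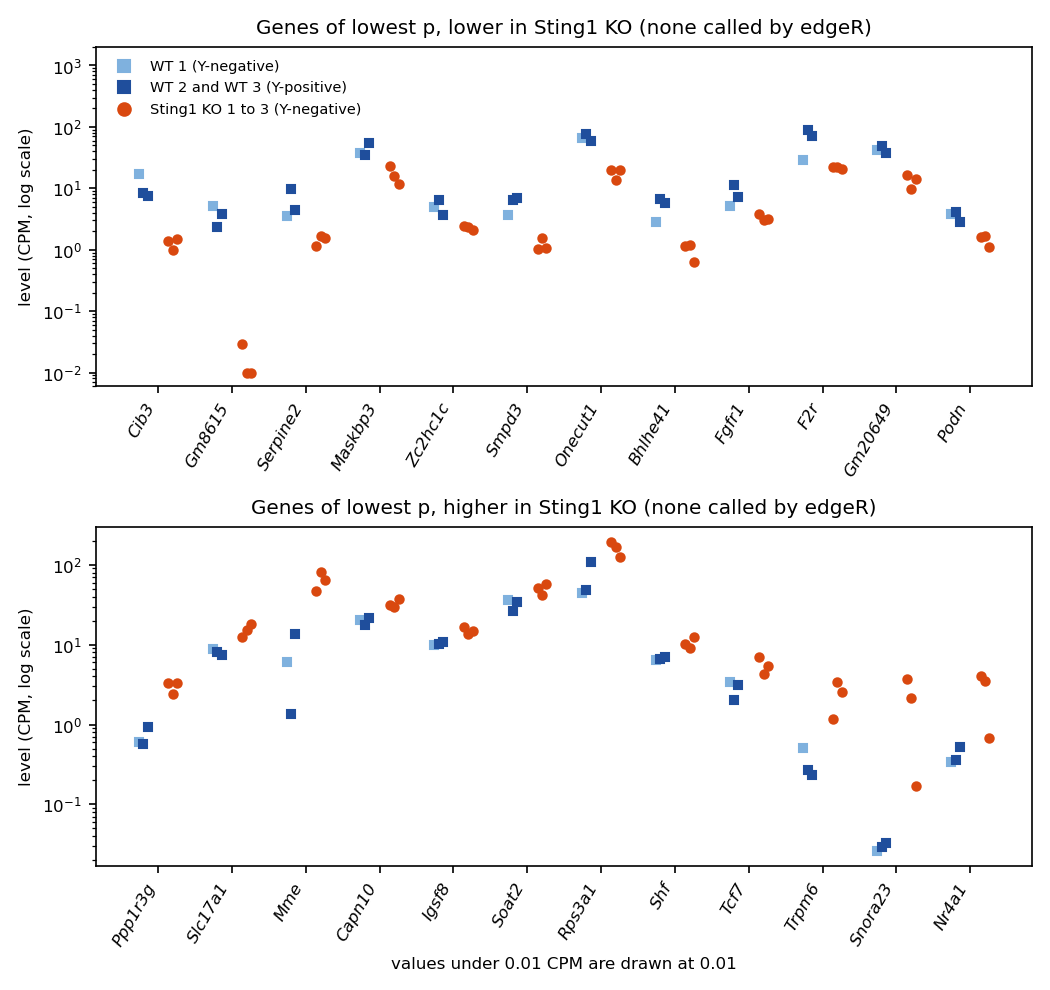
Level in CPM (log axis) in each library of the 12 genes of lowest p that were lower (top) and higher (bottom) in Sting1 KO livers, with WT as squares (light for the Y-negative WT replicate 1) and Sting1 KO as circles. The groups do not overlap, as the choice of genes required, and the light square lies next to the circles for F2r and Fgfr1 but not for Cib3, Onecut1 or Mme.

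The STING pathway itself and the interferon response were the genes that the knockout bears on most directly. Of 44 genes of cGAS-STING signalling, all tested, 20 had a log2 fold change above and 24 below 0, with a median of -0.02 beside 0.00 over all genes. None had an unadjusted p under 0.05. The kinase gene Tbk1 was read at 27.3, 27.8 and 30.6 CPM in WT and at 30.1, 30.1 and 29.0 CPM in Sting1 KO livers (0.06, SE 0.10). The transcription factor gene Irf3 was read at 43.6, 47.0 and 48.4 CPM and at 46.3, 46.6 and 48.3 CPM (0.02, SE 0.11). The libraries of both groups lay within a few CPM of each other for these genes, which were chosen after their values were seen.

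Of 49 tested genes of the type I interferon response, 9 lay above and 40 below 0, with a median log2 fold change of -0.19, and 1 (2.04% of the list, beside 2.88% lower among all genes) had an unadjusted p under 0.05. That direction rested on WT replicate 3. The summed level of the list was 1251, 1006 and 1808 CPM in WT replicates 1, 2 and 3 and 1178, 1177 and 1191 CPM in the Sting1 KO livers. Without WT replicate 3 the median became 0.13, over the Y-negative libraries it was -0.05, and with the Y-linked covariate -0.16. The gene of lowest p was Oasl1, a brake on interferon production, at 14.01, 13.5 and 36.2 CPM in WT and 9.63, 14.4 and 11.4 CPM in Sting1 KO livers (-0.85, SE 0.36, adjusted p = 0.866). Irf7, the amplifier of interferon transcription, was read at 43.9, 37.4 and 156 CPM in WT and at 52.8, 42.4 and 58.6 CPM in Sting1 KO livers. The RNA sensor gene Ifih1, at 73.9, 70.6 and 107 CPM in WT and at 65.0, 74.6 and 52.98 CPM in Sting1 KO livers, had the same single high library. Ifi27 was at 278 CPM in that library, beside 68.8 and 82.0 CPM in the other WT livers and 54.6 to 94.6 CPM in the Sting1 KO livers.

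The DNA element through which interferon acts can be seen near the starts of many of these genes. The letters GAAANNGAAA, the core of the interferon-stimulated response element, were searched on both strands (TTTCNNTTTC is the other strand) in windows from 250 bases before to 50 bases after gene starts from RefSeq (GRCm38.p6, a different build from the GRCm39 of the counts). They occurred in 3.44% of all 32851 windows and in 3.99% of 27025 genes, in 16 of 37 interferon response genes with a window (43.2%) and in 2 of 33 cGAS-STING genes with a window (6.06%). The stretches below show it, in capitals, in 4 genes that were chosen after their values were seen, each given 5′ to 3′ in the direction of the gene.
Ifit1 (chr19:34640775-34640804, plus strand): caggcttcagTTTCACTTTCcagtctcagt
Isg15 (chr4:156200877-156200906, minus strand): tatgccgtagGAAAAGGAAAccgaaacaga
Rsad2 (chr12:26456553-26456582, minus strand): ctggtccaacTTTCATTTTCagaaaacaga
Ifih1 (chr2:62646206-62646235, minus strand): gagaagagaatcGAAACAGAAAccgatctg
Ifit1, an inhibitor of foreign RNA translation, was read at 16.5, 9.22 and 38.8 CPM in WT and at 12.9, 18.0 and 14.96 CPM in Sting1 KO livers. Isg15, a ubiquitin-like modifier, was read at 6.36, 4.09 and 21.7 CPM and at 7.36, 6.71 and 7.91 CPM. Rsad2 (viperin) was read at 10.7, 9.67 and 48.6 CPM and at 10.8, 17.9 and 14.5 CPM. In each the Sting1 KO libraries lay within the WT range, and WT replicate 3 was highest. The 16 genes with the letters had a median log2 fold change of -0.21 (0.03 over the Y-negative libraries) and the 21 without them -0.19 (-0.08), and a match to letters is a description of the window only.

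**Figure D4:**
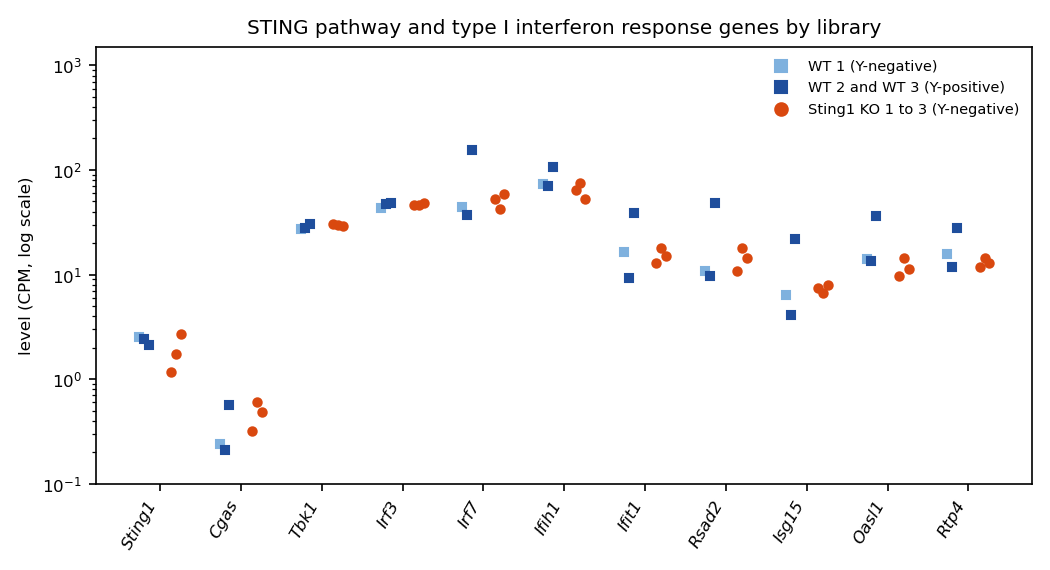
Level in CPM (log axis) in each library of STING pathway genes (Sting1, Cgas, Tbk1, Irf3) and interferon response genes, WT as squares and Sting1 KO as circles. The highest square from Irf7 to Rtp4 is WT replicate 3, and all Sting1 KO circles of these genes lie below it.

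Genes of the other arms that STING is known to feed had medians close to 0 in the fit without the Y-linked covariate. Of 18 tested NF-kB and cytokine genes the median was 0.04 and 1 had an unadjusted p under 0.05: Il1b, the inflammasome cytokine, at 1.504, 0.80 and 2.54 CPM in WT and 2.56, 7.11 and 3.45 CPM in Sting1 KO livers (1.41, SE 0.43, adjusted p = 0.676). Tnf was under 1 CPM in all 6 libraries. MHC class I and antigen processing genes (24 tested) had a median of -0.03, with B2m, the class I light chain, at 1589, 1517 and 1913 CPM in WT and 1313, 1453 and 1441 CPM in Sting1 KO livers. The 10 MHC class II genes had a median of 0.00 (-0.31 to 0.27 with 1 library left out). For them it was -0.23 with the covariate and -0.34 over the Y-negative libraries. The median of 26 genes of the Ifi27, Ifitm and restriction factor list was 0.06. The 31 autophagy and lysosome genes had a median of 0.00, with the acid lipase gene Lipa at 0.45 (SE 0.16) and Atg7, a conjugating enzyme of autophagosome formation, at -0.34 (SE 0.15). The 16 BCL2 family genes had a median of -0.07, and none had an unadjusted p under 0.05.

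Markers of Kupffer cells and of T and NK cells lay mostly on the higher side, and no immune cell marker was called. Of 20 Kupffer cell genes 18 lay above 0 (median 0.24, 0.22 with the covariate and 0.32 over the Y-negative libraries), and 2 had an unadjusted p under 0.05 on the higher side, beside 2.57% of all genes. Without WT replicate 2 the median was 0.11 and without WT replicate 3 it was 0.42. The low-p genes were Marco, a scavenger receptor, at 7.07, 7.92 and 22.4 CPM in WT and 16.5, 58.5 and 22.6 CPM in Sting1 KO livers (1.38, SE 0.49), and Adgre1, which encodes F4/80, at 41.2, 32.3 and 45.8 CPM and 43.6, 72.6 and 49.7 CPM (0.47, SE 0.20). Sting1 KO replicate 2 was highest for both, and the groups overlapped. Of 19 T and NK cell genes 17 lay above 0 (median 0.51), with the T cell receptor gene Trac at 0.40, 0.56 and 0.63 CPM in WT and 0.67, 1.33 and 1.28 CPM in Sting1 KO livers (0.98, SE 0.35). Without Sting1 KO replicate 3 the median of that list was 0.23 and without WT replicate 2 it was 0.25. Lck, a T cell receptor kinase, and Klrb1c, an NK cell receptor, differed by 1.06 and 0.98, at 0.26 to 2.10 CPM over the 6 libraries. Cd4 stood apart from the list, at 0.61 CPM in the Y-negative WT library, 3.47 and 2.74 CPM in the Y-positive ones and 0.89 to 0.99 CPM in Sting1 KO livers. Recruited monocyte and macrophage genes (16 tested, median 0.07) held 3 genes with an unadjusted p under 0.05 on the lower side, beside 2.88% of all genes. Without Sting1 KO replicate 3 the list's median was -0.28 and without WT replicate 2 it was -0.06. Of the 3 genes, Cx3cr1, the fractalkine receptor, was read at 2.74, 2.17 and 0.96 CPM in WT and 0.82 to 0.98 CPM in Sting1 KO livers. Trem2 and Gpnmb, genes of lipid-laden macrophages, were read at 0.71 to 0.79 and 0.24 to 1.32 CPM in WT and at 0.22 to 0.44 and 0.07 to 0.34 CPM in Sting1 KO livers. Neutrophil genes (11 tested) had a median of 0.36, which was -0.21 without Sting1 KO replicate 3 and 0.17 without WT replicate 1. B cell and plasma cell genes (16) had a median of 0.03 (-0.30 to 0.38 with 1 library left out). With the Y-linked covariate that median was 0.35, and over the Y-negative libraries it was 1.31. Dendritic cell genes (10) had a median of -0.05, and chemokines and their receptors (33) of -0.01, with Cxcl14 at -1.76 (SE 0.66).

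Genes of the cells that make up the organ had medians on both sides of 0, and none was called. The summed level of 22 hepatocyte identity genes was 136220 to 188420 CPM in WT and 161210 to 194910 CPM in Sting1 KO livers. Of these 22 genes 11 lay on each side of 0 (median 0.01). Foxa2, a pioneer factor of liver genes, was read at 38.9, 39.9 and 31.5 CPM in WT and at 20.0, 28.6 and 30.4 CPM in Sting1 KO livers (-0.48, SE 0.19, adjusted p = 0.826). Cebpa was read at 437, 469 and 456 CPM and at 349, 335 and 372 CPM (-0.37, SE 0.19), and Tat, the tyrosine-degrading enzyme, at 892, 773 and 710 CPM and at 1100, 1552 and 1201 CPM (0.70, SE 0.34). For all 3 the groups were apart, and for none was the adjusted p under 0.05. Cholangiocyte genes (11 tested) had a median of -0.46, with 9 below 0, which was -0.11 without WT replicate 1 and -0.26 without Sting1 KO replicate 2. It was -0.42 with the Y-linked covariate and -0.67 over the Y-negative libraries. Sox9, a factor of bile duct cells, was read at 2.24, 1.42 and 2.01 CPM in WT and at 1.13, 0.96 and 0.97 CPM in Sting1 KO livers (-0.86, SE 0.27, adjusted p = 0.702). Stellate cell and fibroblast genes (16) had a median of -0.05, which was -0.21 with the covariate and -0.36 over the Y-negative libraries. Rgs5 of this list, a pericyte gene, was read at 49.3, 42.7 and 48.4 CPM in WT and 54.3, 67.7 and 73.9 CPM in Sting1 KO livers (0.48, SE 0.15). Fibrosis and matrix genes (29) had a median of -0.27, with 23 below 0. The median was -0.39 with the covariate and -0.79 over the Y-negative libraries. It was 0.05 without WT replicate 1, where every WT library left was Y-positive, and -0.44 and -0.50 without Sting1 KO replicate 1 or WT replicate 3. In this list the macrophage elastase gene Mmp12 was read at 0.61, 0.33 and 3.04 CPM in WT and 0.13 to 0.22 CPM in Sting1 KO livers. Sinusoidal endothelial genes (15) had a median of 0.28, which was 0.01 with the Y-linked covariate and 0.08 without WT replicate 2. Of the muscle and pancreas markers 3 of 17 had enough reads to test. Below that filter, WT replicate 2 held muscle reads, with 74 of Myh4 and 59 of Acta1 beside 0 to 3 in the other 5 libraries, and its part in the results was not tested. Pancreas enzyme reads below the filter were 0 or 1 in all 6 libraries. Erythroid genes (7) had a median of -0.68 (-0.33 without WT replicate 2), and Alas2, the haem synthesis enzyme of red cell precursors, was read at 25.1 CPM in the Y-negative WT library, 194 and 190 CPM in the Y-positive ones and 21.0 to 30.4 CPM in Sting1 KO livers.

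Beside the Y-linked genes themselves, the lists with the widest medians were those of sex-biased liver genes. In their summed levels the Y-negative WT library lay nearer to the Sting1 KO group than to the other WT libraries. All 24 tested male-biased genes lay below 0 (median -3.38), 22 with an unadjusted p under 0.05. The median was -0.33 with the Y-linked covariate and 0.25 over the Y-negative libraries. Mup20, a pheromone carrier (darcin), was read at 128, 9080 and 3924 CPM in WT replicates 1, 2 and 3 and at 46.6, 54.3 and 76.2 CPM in Sting1 KO livers. Mup7 was read at 9.55, 5499 and 2611 CPM and at 4.89 to 7.01 CPM, and Cyp7b1, an oxysterol hydroxylase of bile acid synthesis, at 32.0, 678 and 407 CPM and at 29.8 to 49.0 CPM. Cyp4a12a, a fatty acid hydroxylase, had no read in WT replicate 1, 142 and 171 CPM in the others and 0.03 to 0.17 CPM in Sting1 KO livers. Of 34 female-biased genes 33 lay above 0 (median 1.59, 0.31 with the covariate and 0.10 over the Y-negative libraries), and without WT replicate 1 the median was 6.86. Cyp2a4 was read at 1058, 0.30 and 19.0 CPM in WT and at 1003 to 1413 CPM in Sting1 KO livers. Of the 34, 11 were higher in Sting1 KO livers without overlap, beside 7.06% of all genes. A1bg was among them, at 84.7 CPM in WT replicate 1, 0.18 and 0.50 CPM in the other WT libraries and 1075, 1313 and 1039 CPM in Sting1 KO livers. It differed by 3.07 (SE 0.70, adjusted p = 1) with Y-linked expression in the model and by 3.76 over the Y-negative libraries. Cyp2c69 was another, at 383, 0.95 and 22.5 CPM in WT and 981 to 1077 CPM in Sting1 KO livers (0.52 with the covariate, 1.42 over the Y-negative libraries). Hao2, a peroxisomal hydroxyacid oxidase, was similar in kind, at 20.8, 0.03 and 0.03 CPM in WT and 44.9, 63.9 and 64.1 CPM in Sting1 KO livers.

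Metabolic genes showed 1 list with nearly all members on the same side. Of 34 tested genes of PPAR-alpha and fatty acid oxidation 32 lay above 0, with a median of 0.38 (0.38 with the covariate, 0.47 over the Y-negative libraries), and 7 (20.6%) had an unadjusted p under 0.05 on the higher side, beside 2.57% of all genes. With the covariate 1 did. Acot1, a cytosolic acyl-CoA thioesterase, was read at 5.36, 4.69 and 5.45 CPM in WT and at 15.1, 11.8 and 29.8 CPM in Sting1 KO livers (1.86, SE 0.70). Acot2, its mitochondrial relative, was read at 7.04, 1.60 and 3.30 CPM and at 7.94, 9.82 and 12.4 CPM (1.32, SE 0.50), and its reads may be shared with Acot1. Pdk4, which spares glucose by shutting pyruvate dehydrogenase, was read at 2.37, 1.28 and 1.55 CPM and at 2.47, 4.38 and 3.55 CPM (0.97, SE 0.36). Cyp4a31 was read at 2.30, 0.53 and 0.43 CPM and at 3.08, 3.37 and 3.96 CPM (1.61, SE 0.61). For Acot2, Pdk4 and Cyp4a31 the Y-negative WT library was the highest of the WT group and close to the lowest Sting1 KO library, and the log2 fold changes over the Y-negative libraries were 0.52, 0.54 and 0.59. For Acot1 it was 1.81. The summed level of the list was 9957, 10829 and 10587 CPM in WT and 12497, 11631 and 15747 CPM in Sting1 KO livers. Without Sting1 KO replicate 3 the median was 0.22.

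Other metabolic and stress lists had medians close to that of all genes in the fit without the Y-linked covariate. Sterol synthesis (25 genes) had a median of 0.04, lipogenesis (26) -0.01, gluconeogenesis and amino acid catabolism (25) 0.10, bile acid synthesis and transport (22) 0.05, xenobiotic P450 and conjugation (33) -0.13, NRF2 and oxidative stress (24) -0.02, ER and integrated stress (24) -0.08, heat shock (18) 0.03, the circadian clock (24) -0.12, the growth hormone and IGF axis (15) 0.08 and p53 targets (19) 0.18. With the Y-linked covariate the medians were -0.23 for lipogenesis, -0.33 for the circadian clock, -0.31 for xenobiotic P450 and -0.24 for heat shock. In that order they were -0.23, -0.10, -0.14 and -0.12 over the Y-negative libraries. The rest of these lists had medians from -0.15 to 0.22 with the covariate. Of the 26 lipogenesis genes 5 had an unadjusted p under 0.05 with the covariate, beside 3.48% of all genes. Among the members of these lists Nqo1, the quinone reductase, was read at 13.9, 5.37 and 7.03 CPM in WT and at 14.4, 18.9 and 17.7 CPM in Sting1 KO livers (0.95, and 0.29 over the Y-negative libraries). Hmox1, haem oxygenase, was read at 20.8, 13.9 and 24.8 CPM and at 23.02, 30.9 and 28.7 CPM (0.47, SE 0.21). Acute phase genes (27) had a median of -0.24, with 6 at an unadjusted p under 0.05 on the lower side and 2 on the higher side, beside 2.88% and 2.57% of all genes. With the Y-linked covariate 0 of the 27 had an unadjusted p under 0.05. The median was -0.13 with the covariate, 0.15 over the Y-negative libraries and -0.09 without WT replicate 2. The serum amyloid genes among them were high in a single liver, WT replicate 2, with Saa1 at 25.9, 1474 and 59.4 CPM in WT and 18.8 to 27.8 CPM in Sting1 KO livers and Saa2 at 15.6, 1108 and 22.6 CPM and 7.46 to 18.0 CPM. Lcn2 was also highest there, at 44.5 CPM beside 4.57 to 13.2 CPM elsewhere. Serpina3n, a secreted protease inhibitor, was lower in every Sting1 KO library (439 to 542 CPM in WT, 265 to 372 CPM in Sting1 KO livers, -0.52, SE 0.18). Mt2, a metallothionein, was high in 1 Sting1 KO liver, at 8.29, 34.4 and 2.49 CPM beside 0.95 to 4.67 CPM in WT.

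Immediate early and cell cycle genes lay above 0 in most members. Of 24 immediate early genes 22 did (median 0.58, 0.66 with the covariate and 0.69 over the Y-negative libraries), and 5 (20.8%) had an unadjusted p under 0.05 on the higher side, beside 2.57% of all genes. Their summed level was 301, 203 and 289 CPM in WT and 495, 359 and 263 CPM in Sting1 KO livers, so that Sting1 KO replicate 3 lay within the WT range. Egr1 was read at 1.93, 1.93 and 4.36 CPM in WT and at 54.0, 7.403 and 1.18 CPM in Sting1 KO livers, Fos at 0.39 to 0.66 CPM and at 6.75, 1.17 and 0.72 CPM, and Junb at 23.3, 18.5 and 41.2 CPM and at 105, 57.2 and 29.7 CPM. Immediate early genes are known to respond within minutes to many stimuli, and Egr1 also lies 0.87 Mb from Sting1. Of 34 cell cycle genes 30 lay above 0 (median 0.37, 0.62 with the covariate and 0.38 over the Y-negative libraries). Ccnd1, cyclin D1, was read at 184, 46.6 and 43.3 CPM in WT and at 285, 176 and 252 CPM in Sting1 KO livers (1.38, SE 0.50), with the Y-negative WT library within the Sting1 KO range. Cenpa, the centromere histone, was read at 2.43, 2.82 and 2.81 CPM and at 4.57, 3.56 and 4.85 CPM (0.68, SE 0.30), and Birc5, survivin, at 0.37 to 0.50 CPM and at 1.28, 0.80 and 0.63 CPM. Of the 34, 2 had an unadjusted p under 0.05 on the higher side and 0 on the lower side, and with the Y-linked covariate 8 (23.5%) did in either direction, beside 3.48% of all genes. Without Sting1 KO replicate 1 the median was 0.21.

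**Figure D5:**
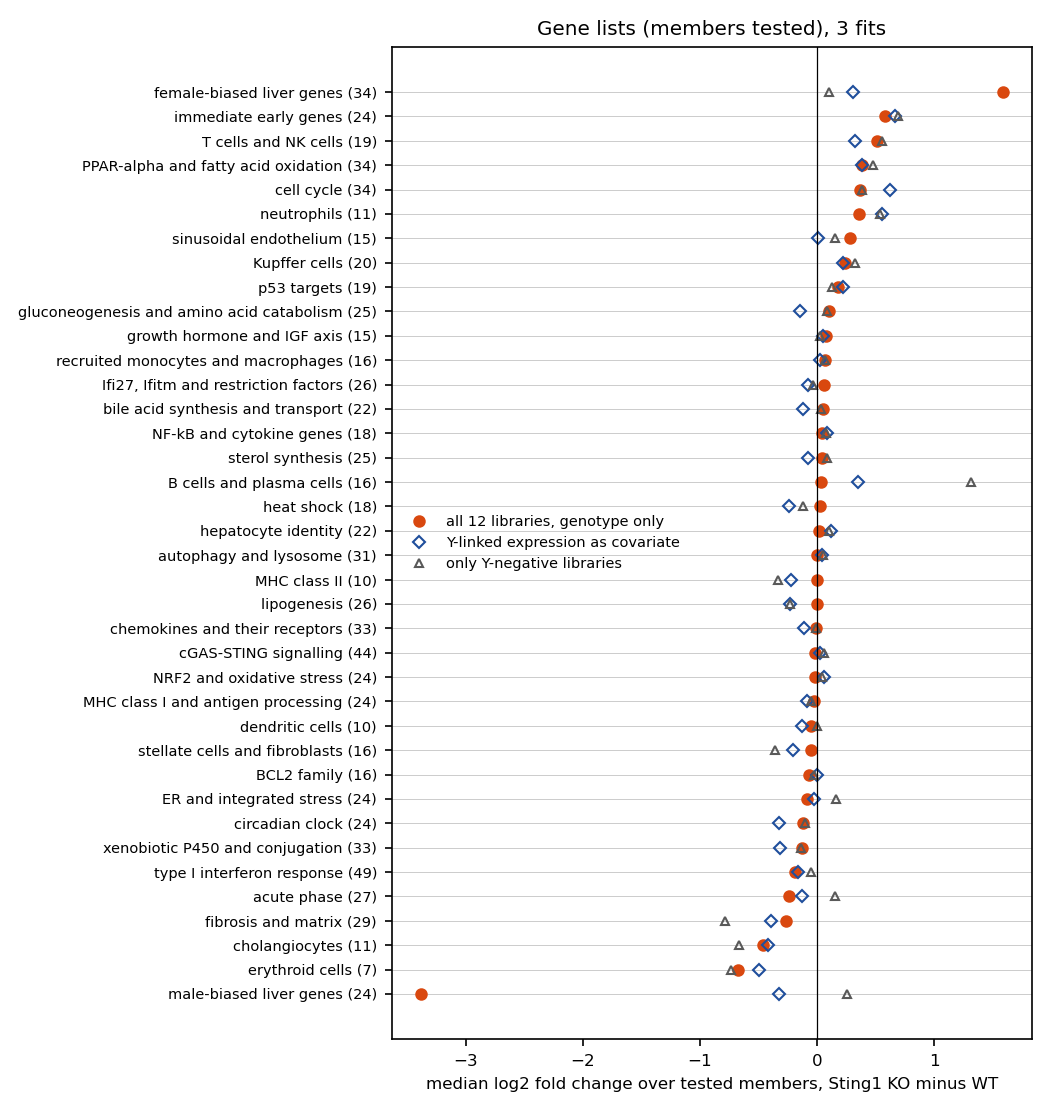
Median log2 fold change (Sting1 KO minus WT) over the tested members of each gene list, from the fit with genotype only (filled circles), with Y-linked expression as a covariate (diamonds) and over the Y-negative libraries (triangles). The male-biased and female-biased lists move from -3.38 and 1.59 towards 0, while the immediate early, PPAR-alpha and Kupffer cell lists stay between 0.22 and 0.69 in all 3 fits.

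Small structured RNAs made up a larger share of the Sting1 KO libraries. The share of counted reads on genes annotated as snoRNA, snRNA, scaRNA, ribozyme and the like was 0.172%, 0.184% and 0.369% in WT and 0.506%, 0.563% and 0.897% in Sting1 KO livers, and it ran from 0.283% to 2.37% over the 6 Mcl1-deficient libraries. Of 146 such genes tested, 132 lay above 0 with a median log2 fold change of 1.21, and 61 (41.8%) were higher in Sting1 KO livers without overlap, beside 7.06% of all genes. With that share as a covariate 0 genes of any kind were called by edgeR. In that fit 1717 of 15070 genes had an unadjusted p under 0.05, beside 821 without the share in the model. Beyond this fit, the part of this share in the differences of other genes was not tested.

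The effect of Sting1 loss was last compared between the backgrounds, as the difference between the Sting1 contrast in Mcl1-deficient livers and that in Mcl1-intact livers. No gene was called (0 of 15070, 0%, with a lowest adjusted p of 0.216), and 2165 (14.4%) had an unadjusted p under 0.05. WT replicates 2 and 3 and Mcl1 Sting1 DKO replicate 1 were Y-positive, and no Sting1 KO or Mcl1 KO library was. Y-linked expression was thus uneven in opposite directions in the 2 contrasts. The median of male-biased genes was -3.38 in Mcl1-intact and 2.08 in Mcl1-deficient livers. The part of this imbalance in the 2165 genes and in the medians below was not tested. Mme differed most among the low-p genes by size. Its contrast was 3.19 in Mcl1-intact livers and -2.33 in Mcl1-deficient ones (adjusted p of the difference 0.216). List medians in the 2 backgrounds, intact first, were -0.02 and -0.05 for cGAS-STING signalling, -0.19 and -0.12 for the interferon response, 0.38 and 0.39 for PPAR-alpha and fatty acid oxidation, and 0.58 and -0.15 for immediate early genes. For chemokines and their receptors they were -0.01 and -0.71, for recruited monocytes and macrophages 0.07 and -0.89, and for T and NK cells 0.51 and -0.59. The differences between these medians were not tested. Mcl1 KO replicate 3 stood apart in pancreas and muscle genes, with Cela2a at 2161 CPM, Cela1 at 1618 CPM and Mylpf at 111 CPM, beside at most 1.62, 30.9 and 0.89 CPM elsewhere. Without it 0 genes were called for the difference, and the medians in Mcl1-deficient livers were -0.05, -0.12, 0.45, -0.27, -0.70, -1.04 and -0.48 in the order given above.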

How the data were processed

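Total RNA from whole livers was sequenced on an Illumina NovaSeq, and the submitters' notes name STAR, featureCounts and GRCm39, with no versions. The deposited values used here are counts of reads per gene (unnormalised whole numbers), as the authors counted them. GENCODE vM39 (GRCm39) gave symbols and positions for 39533 of the 40551 identifiers, and 0 columns of per-sample values went unused.

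Genes were filtered by edgeR 4.0.16 (filterByExpr), scaled by TMM and fitted with its quasi-likelihood test (glmQLFit, glmQLFTest; R 4.3.3), with genotype as the only factor over 12 libraries and a prior count of 2. Adjusted p is Benjamini-Hochberg over all 15070 tested genes, called under 0.05. DESeq2 1.42.0 was an alternative. SE is that of the log2 fold change. A library was Y-positive above 10 CPM of Y-linked genes. The 40 gene lists (841 distinct tested genes), the members and the comparisons were chosen with earlier results of these data known. Genes named were drawn from Sting1, Cgas and Mcl1, the 12 genes of lowest p in each direction with a mean of at least 1 CPM and no overlap between groups (since none was called), and up to 4 of lowest p and 4 of highest CPM per list, of which only part are described. Tbk1, Irf3, Isg15, Ifit1, Rsad2, Gnpda1, Eif4ebp3, Hao2, Uty, Cd1d2, C1s2, Gm7086, Myh4 and Acta1 fall outside this rule and were chosen after their values were seen. Both tests were checked on simulated counts. Within each group every pair of libraries differed by more than sampling noise (chi-square per degree of freedom 40.1 or more), so none was a repeat deposit. Depth limits low genes, since 3 reads, the floor set here for a count of 0, are 0.0712 to 0.0931 CPM in these 6 libraries.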

Additional observations from a re-analysis of the deposited data

How the results depend on the processing

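The absence of calls between Sting1 KO and WT livers held with RLE size factors, without a filter, with a filter of 1 CPM in 3 libraries, with the replicate block (0 calls) and with either covariate over all libraries, and changed elsewhere. DESeq2 called 49 genes (15 higher, 34 lower). The 6 libraries alone gave 2, both lower (Gm8615 and Onecut1). 3 alternatives were chosen after seeing the data: the Y-negative libraries gave 1 call, lower (C1s2), the covariate within the 6 libraries gave 3 (A1bg higher, Cib3 and Gm8615 lower, so 1 and 2), and DESeq2 with the covariate gave 2 (Hao2 higher, 1, and Cib3 lower, 1). Leaving out 1 library gave 0 to 22 calls (0 to 15 higher, 0 to 7 lower): 22 without WT replicate 1 (15 higher, 7 lower), 3 without WT replicate 3, and 1 each without Sting1 KO replicate 3 (Cd1d2), Mcl1 KO replicate 2 (Gm8615) or Mcl1 Sting1 DKO replicate 3 (Cib3). For the difference between backgrounds, DESeq2 called 170 genes and 16 with the covariate, and leaving out 1 library gave 0 to 1574, with 1574 without Mcl1 KO replicate 1, 88 without WT replicate 1 and 1 without Sting1 KO replicate 3. The causes were not tested. Sting1 stayed below 0 and was not called in all alternatives, from -0.69 to -0.09 when 1 library was left out.

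Directions of single genes turned as follows, none of them called. Over the Y-negative libraries the log2 fold change became 0.23 for Irf7, 0.16 for Ifi27, 0.61 for Cd4, 0.0584 for Alas2, 1.49 for Cyp4a12a, 0.24 for Cyp7b1, 0.21 for Isg15 and 0.43 for Rsad2. With the covariate within the 6 libraries it became 0.21 for Irf7, 0.14 for Ifi27, 0.60 for Cd4, 0.0411 for Alas2, 0.22 for Cyp7b1, 0.19 for Isg15 and 0.41 for Rsad2. With the covariate over all libraries it became 0.0011 for Irf7, 0.0792 for Ifi27 and 0.15 for Rsad2, and in DESeq2 with the covariate 0.00037, 0.0787 and 0.15. Irf3 became -0.0569 with the small structured RNA share as covariate. Leaving out 1 library gave -0.96 to 0.34 for Irf7, -1.23 to 0.0243 for Ifi27, -0.93 to 0.48 for Isg15, -0.85 to 0.25 for Ifit1, -1.04 to 0.50 for Rsad2 and -0.0193 to 0.0554 for Irf3; the turn was without WT replicate 3 in each but Irf3, where it was without WT replicate 1. List medians that turned when 1 library was left out included fibrosis and matrix (-0.50 to 0.05), neutrophils (-0.21 to 0.69), MHC class II (-0.31 to 0.27), B cells and plasma cells (-0.30 to 0.38), recruited monocytes and macrophages (-0.28 to 0.18), stellate cells and fibroblasts (-0.18 to 0.25) and the interferon response (-0.32 to 0.13).

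The replicate numbers do not pair the libraries: deviations from group means of same-numbered Sting1 KO and WT libraries correlated at -0.02, -0.09 and -0.02. With the replicate block there were 0 calls and 791 genes at an unadjusted p under 0.05.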

Other observations

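3 further genes, picked out after their values were seen, were read in some libraries and nearly or wholly absent from others. The split ran through the WT group for C1s2 and through the Sting1 KO group for Cd1d2. C1s2, a copy of the complement C1s gene, had 766, 795 and 1 reads in WT replicates 1, 2 and 3, 2, 1 and 0 reads in Sting1 KO, 0, 2 and 0 reads in Mcl1 KO and 0, 0 and 2 reads in Mcl1 Sting1 DKO livers. Cd1d2, a CD1d antigen-presenting gene, had 864, 557 and 229 reads in WT, 6, 8 and 562 reads in Sting1 KO, 508 to 720 reads in Mcl1 KO and 429 to 782 reads in Mcl1 Sting1 DKO livers. The pseudogene Gm7086 had 0 reads in all 3 WT livers and 21, 28 and 31 reads in Sting1 KO livers. That is 23.96-fold higher against a floor of 3 reads set for the WT group (exact lower limit 19.04, counting error only). It had 6 to 26 reads in Mcl1 KO and 0, 6 and 8 reads in Mcl1 Sting1 DKO livers.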
